A study of Mus musculus with 4 samples.

Results

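A panel of 10 vascular marker genes was followed here among the 54393 gene identifiers of a mouse mammary RNA sequencing study, in which 4 libraries compared cKO with WT glands. The genes were chosen by name as known markers, with earlier results of these data already known. Of the panel, 5 mark endothelial cells (Pecam1, Cdh5, Kdr, Vwf and Eng) and 5 mark pericytes (Pdgfrb, Rgs5, Cspg4, Mcam and Kcnj8), and each matched 1 identifier in the GENCODE M21 mouse annotation. The cKO libraries carry the genotype label Dnp63 cKO, which means conditional loss of ΔNp63, the truncated p63 transcription factor of basal epithelium. There was 1 cKO and 1 WT library at 5 weeks, and 1 cKO and 1 WT library at 10 days, after tamoxifen (1.5 mg/ml) given at puberty, at 4 weeks of age. The labels describe all 4 libraries as coming from iK14-Cre; DNp63 f/f mice that received tamoxifen, and do not say how the WT animals differed. Glands aged 5 weeks and 35 weeks are named there too, although tamoxifen at 4 weeks plus 5 weeks does not add up to 35. The Cre in this line is driven by the keratin 14 promoter, which is active in basal epithelium and not in vessels. Cells bearing CD45, CD31 or Ter119 were sorted out of the digested glands, the rest was labelled as mammary epithelial cells, and 100000 of them were used. Whether separate animals stand behind the libraries is not stated. With 1 library per genotype and time point, there are no replicates within a time point. The spread behind the p-values is only the departure of the 4 libraries from genotype plus time effects, moderated over all genes.

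Endothelial cells line blood vessels and lymphatics. They are held together by VE-cadherin (Cdh5) and PECAM-1 (Pecam1), and sense VEGF through the receptor VEGFR2 (Kdr). Pericytes wrap small vessels and are recruited by PDGF-B, which endothelium secretes and which acts on the receptor PDGFRβ (Pdgfrb). In the mammary gland, vessels run through the stroma around the ducts. None of these 10 genes is fully private to its cell type: Pecam1 and Eng are also transcribed in some blood cells, Vwf and Pecam1 in platelets and their precursors, Pdgfrb in fibroblasts, and Cspg4 and Mcam in some glial, muscle and epithelial cells. These sources are examples and not a full list, so the endothelial and pericyte sets do not cleanly separate the cell types. CD31, one of the sorted antigens, is the protein product of Pecam1.

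Trp63, the whole p63 gene including isoforms other than ΔNp63, stood at 25.5 CPM (counts scaled to library size) in cKO against 160.5 CPM in WT at 5 weeks, and at 12.8 CPM in cKO against 46.8 CPM in WT at 10 days, the order the labels imply. Depth and cell mix differed between libraries. Total counts were 34230566 in cKO and 79122250 in WT at 5 weeks, and 31714181 in cKO and 33363255 in WT at 10 days. The labelled epithelium was present, beside many fibroblast transcripts. Summed over a list of 15 fibroblast genes, the level was 65003 CPM in cKO and 34485 CPM in WT at 5 weeks, and 41607 CPM in cKO and 42708 CPM in WT at 10 days. The 10 basal epithelial genes listed summed to 2043 CPM in cKO and 17059 CPM in WT at 5 weeks, and to 1958 CPM in cKO and 5416 CPM in WT at 10 days. Their median log2 fold change of cKO over WT was -1.51, led by the keratin genes Krt5 (-4.05) and Krt14 (-3.17). The 10 luminal epithelial genes (median 0.02), led by Krt8 (0.06) and Krt18 (0.07), lay between 7762 and 9888 CPM in all 4 libraries.

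Vascular transcripts were present in every library although CD31-positive cells had been sorted out. The 5 endothelial genes summed to 309 CPM in cKO and 222 CPM in WT at 5 weeks, and to 228 CPM in cKO and 176 CPM in WT at 10 days, or between 0.0176% and 0.0309% of counts. The 5 pericyte genes, whose cells the sorting antigens do not target, summed to 521 CPM in cKO and 339.7 CPM in WT at 5 weeks, and to 419.7 CPM in cKO and 329 CPM in WT at 10 days. No member was at 0 in any library. Their raw counts ran from 232 (Kcnj8 in WT at 10 days) to 15016 (Pdgfrb in WT at 5 weeks). In sorted bulk cells, fewer cells of a type and less RNA per cell cannot be told apart. All 10 passed the filter on low counts.

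The promoters of the 2 endothelial and the 2 pericyte members with the highest genotype estimates among those matched are shown, because vascular promoters are known for binding sites of ETS factors, whose core motif is GGAA. In all, 6 of the 10 members (Kdr, Eng, Rgs5, Cspg4, Mcam and Kcnj8) matched the promoter table. Each line holds the 250 bases before the RefSeq start on GRCm38.p6, 5′ to 3′ on the gene's strand, with GGAA on either strand (TTCC on the printed one) in capitals.
Kdr, chr5:75978456-75978705, minus strand: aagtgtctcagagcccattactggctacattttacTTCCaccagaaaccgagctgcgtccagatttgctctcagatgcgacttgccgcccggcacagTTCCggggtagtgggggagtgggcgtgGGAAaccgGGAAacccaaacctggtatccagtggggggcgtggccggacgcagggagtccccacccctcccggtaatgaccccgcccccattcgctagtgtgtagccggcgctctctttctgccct
Eng, chr2:32646345-32646594, plus strand: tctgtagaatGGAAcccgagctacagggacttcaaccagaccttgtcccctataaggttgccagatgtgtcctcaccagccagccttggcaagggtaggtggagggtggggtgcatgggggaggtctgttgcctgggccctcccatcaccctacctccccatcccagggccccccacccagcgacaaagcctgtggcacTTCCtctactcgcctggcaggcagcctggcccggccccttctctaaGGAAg
Rgs5, chr1:169655251-169655500, plus strand: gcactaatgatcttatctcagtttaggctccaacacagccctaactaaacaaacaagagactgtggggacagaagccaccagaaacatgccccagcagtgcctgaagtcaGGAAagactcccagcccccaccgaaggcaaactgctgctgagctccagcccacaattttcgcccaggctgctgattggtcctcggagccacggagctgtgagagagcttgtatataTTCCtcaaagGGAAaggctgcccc
Kcnj8, chr6:142571615-142571864, minus strand: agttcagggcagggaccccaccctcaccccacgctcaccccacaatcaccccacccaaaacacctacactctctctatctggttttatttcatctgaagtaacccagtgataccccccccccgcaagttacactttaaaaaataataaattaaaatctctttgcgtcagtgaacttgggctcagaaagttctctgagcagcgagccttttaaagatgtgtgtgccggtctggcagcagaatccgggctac
The core occurred 4 times in the Kdr window, 3 times in Eng, 3 times in Rgs5 and 0 times in Kcnj8. Of all 32851 windows of this length, 93.4% held at least 1, with a median of 3, so its presence does not set these promoters apart. The GC box GGGCGG, searched on both strands and held by 32.7% of windows, occurred 2 times in Kdr, 5 times in Mcam and 2 times in Cspg4, and 0 times in Eng, Rgs5 and Kcnj8. The TATA motif TATAAA (12.4% of windows) occurred in 0 of the 6. The E-box CANNTG, a palindromic core that basic helix-loop-helix factors bind (66.2% of windows), occurred 1 time each in Kdr, Eng, Mcam and Kcnj8 and 0 times in Rgs5 and Cspg4. The CArG box of serum response factor, a motif of contractile genes, was held by 1.47% of all windows and 0 of the 6. A CArG box can contain the TATA motif; none of the other motifs contains another.

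Levels of different genes were compared per kilobase of exon (union of annotated exons), over the 4 libraries. Pdgfrb was the most abundant member, at 43.8 ± 8.18 CPM per kilobase (SD, n = 4), and its lowest library (35.7) lay above the highest of the next gene. Eng, an accessory receptor for BMP9 and TGF-β, followed at 21.2 ± 5.91, then Rgs5, a regulator of G-protein signalling, at 19.6 ± 7.96, and Mcam (CD146), a cell adhesion molecule, at 13.0 ± 2.74 CPM per kilobase. Cdh5 stood at 7.31 ± 2.08 and Pecam1 at 6.28 ± 1.83 CPM per kilobase. Kcnj8, the pore subunit Kir6.1 of the vascular ATP-sensitive potassium channel, stood at 4.35 ± 1.57, and Vwf, the von Willebrand factor that binds platelets, at 3.66 ± 0.624. Kdr, at 2.16 ± 0.663, and Cspg4, the NG2 proteoglycan, at 1.56 ± 0.613 CPM per kilobase, were lowest. Neighbours in this order overlapped in range over the libraries except Pdgfrb with Eng and Vwf with Kdr. With the longest transcript in place of the exon union, Pecam1 stood at 11.4 CPM per kilobase, above Cdh5 at 7.69, Vwf at 6.65, Kdr at 3.29 and Cspg4 at 2.30.

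The genotype comparison asked which vascular genes differ between cKO and WT with time point held constant. No member passed the threshold, but 9 of the 10 had a positive log2 fold change of cKO over WT, against 9353 of the 18917 genes tested. The same share is the background for later counts of positive fitted log2 fold changes of cKO over WT. In edgeR's quasi-likelihood test, with p-values adjusted over all 18917 genes tested, 0 of 10 members were called at an adjusted p of 0.05, against 0.0581% of all genes. At an unadjusted p under 0.05, 2 members (Kdr and Kcnj8) were higher in cKO, or 2 of 10, against 5.8% of all genes higher in cKO, and 0 were lower (also 5.8% of all genes). DESeq2 and limma-voom also called 0 of 10 at an adjusted p of 0.05, against 2.71% and 0.106% of all genes. Each had 2 members higher in cKO at an unadjusted p under 0.05, Rgs5 and Kcnj8 in DESeq2, Kdr and Kcnj8 in limma-voom. At that cut 934 (DESeq2) and 1203 (limma-voom) of the 18917 genes tested were higher in cKO. The 5 endothelial members had a median of 0.47 and the 5 pericyte members one of 0.45 on the log2 scale, against -0.01 for all genes tested. Both cKO libraries lay above both WT libraries for 6 of the 10 (Cdh5, Kdr, Pdgfrb, Rgs5, Mcam and Kcnj8), against 22.6% of all genes, and below them for 0, against 23.3%.

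**Figure D1:**
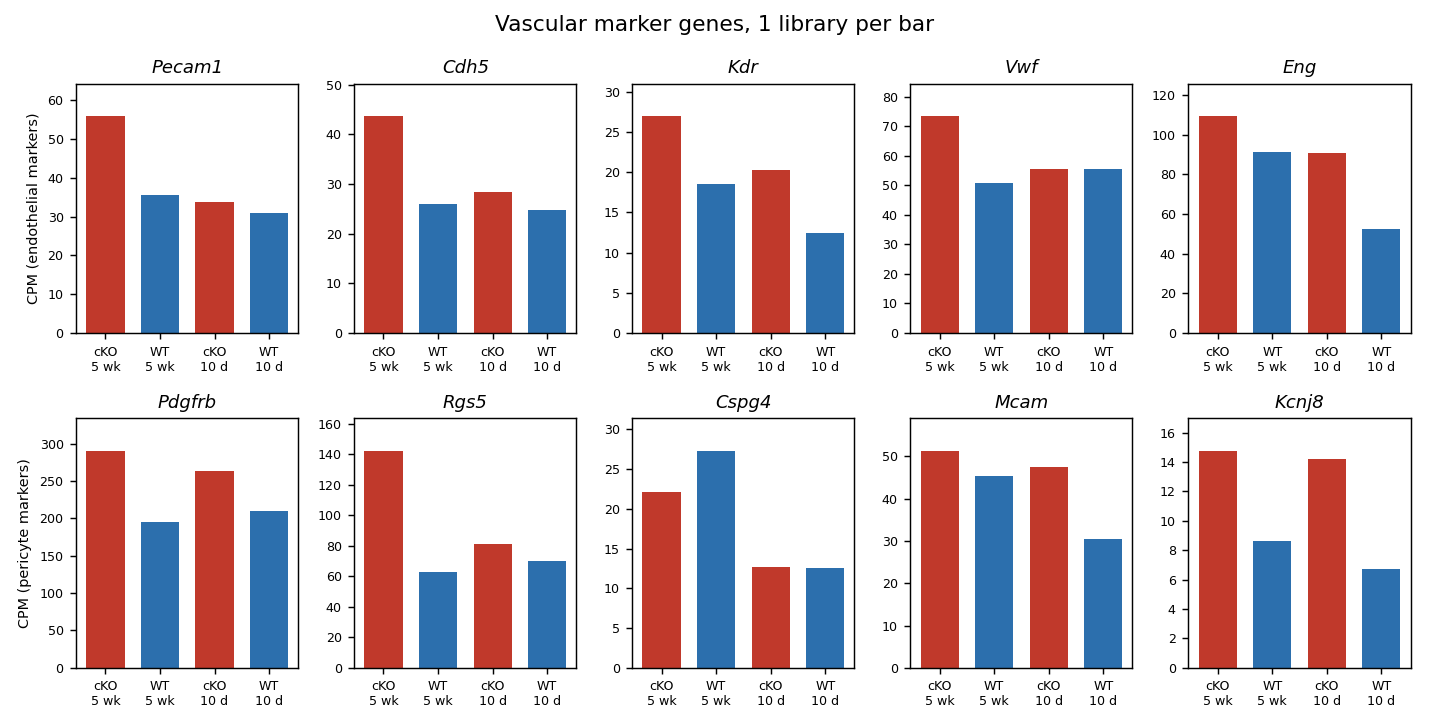
CPM (vertical axis, from 0) of the 10 vascular genes, 1 bar per library, cKO in red and WT in blue, with the 5-week libraries left of the 10-day libraries and 1 panel per gene. The cKO library at 5 weeks is the highest for 9 of the 10 genes, and for Cspg4 it is the WT library at 5 weeks, at 27.3 CPM. How often the cKO library at 5 weeks is the highest over all genes was not counted.

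Among the endothelial genes, Pecam1 (ENSMUSG00000020717.19, GRCm38 chromosome 11, 106654217 to 106750628, minus strand) stood at 55.9 CPM in cKO against 35.7 CPM in WT at 5 weeks, and at 33.9 CPM in cKO against 30.9 CPM in WT at 10 days. The gene of the sorted antigen was thus highest in cKO at 5 weeks, with the other 3 libraries close together, and the genotypes overlapped. Its log2 fold change was 0.39 (SE 0.231, adjusted p = 0.577). Cdh5 (ENSMUSG00000031871.9, chromosome 8, 104101625 to 104144511, plus strand), the gene of the adherens junction cadherin of endothelium, stood at 43.7 CPM in cKO against 26.0 CPM in WT at 5 weeks, and at 28.3 CPM in cKO against 24.8 CPM in WT at 10 days. The cKO library at 5 weeks was again the high one, and the genotypes were just apart (log2 fold change 0.47, SE 0.242, adjusted p = 0.523). The ratio of Cdh5 to Pecam1 in CPM moved little, at 0.780 in cKO and 0.729 in WT at 5 weeks, and 0.836 in cKO and 0.802 in WT at 10 days.

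Both receptor genes of the endothelial set had a cKO excess at 10 days too. Kdr (ENSMUSG00000062960.10, chromosome 5, 75932827 to 75978458, minus strand) stood at 27.0 CPM in cKO against 18.5 CPM in WT at 5 weeks, and at 20.2 CPM in cKO against 12.4 CPM in WT at 10 days. The 2 cKO libraries were above the 2 WT libraries, and the log2 ratio was 0.54 at 5 weeks and 0.70 at 10 days. The log2 fold change was 0.62 (SE 0.232, unadjusted p = 0.0389, adjusted p = 0.404). Eng (ENSMUSG00000026814.16, chromosome 2, 32646595 to 32682669, plus strand) stood at 109.3 CPM in cKO against 91.4 CPM in WT at 5 weeks, and at 90.5 CPM in cKO against 52.5 CPM in WT at 10 days. WT at 10 days was the low library, and cKO at 10 days lay just below WT at 5 weeks. The fit gave Eng 0.52 on the log2 scale (SE 0.219, adjusted p = 0.448). Eng shares 61 exonic bases, or 1.51% of its exon length, with Fpgs on the opposite strand. The ratio of Eng to Pecam1 varied more than that of Cdh5, at 1.95 in cKO and 2.56 in WT at 5 weeks, and 2.67 in cKO and 1.70 in WT at 10 days.

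Vwf (ENSMUSG00000001930.17, chromosome 6, 125546774 to 125686679, plus strand), which large vessels and megakaryocytes express, stood at 73.4 CPM in cKO against 50.6 CPM in WT at 5 weeks, and at 55.4 CPM in cKO against 55.6 CPM in WT at 10 days. Its genotype difference was seen at 5 weeks and was absent in the 10-day values, with a log2 fold change of 0.27 (SE 0.223, adjusted p = 0.701). The 10 platelet genes listed summed to 27.7 CPM in cKO and 27.6 CPM in WT at 5 weeks, and to 26.7 CPM in cKO and 37.4 CPM in WT at 10 days. Most of that sum was Itga2b (21.7 CPM in cKO and 22.0 in WT at 5 weeks, 23.5 in cKO and 33.4 in WT at 10 days), which encodes the platelet integrin αIIb. Ppbp, the platelet basic protein gene, stood at 0.118 CPM in cKO and 2.95 CPM in WT at 5 weeks, and at 0.787 CPM in cKO and 1.25 CPM in WT at 10 days. Gp9 had 0 counts in all 4 libraries. The median log2 fold change of the 7 platelet genes tested was 0.12, and their part in the Vwf values was not tested.

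The pericyte genes differed among themselves. Pdgfrb (ENSMUSG00000024620.11, chromosome 18, plus strand) stood at 290.5 CPM in cKO against 195 CPM in WT at 5 weeks, and at 264 CPM in cKO against 209.7 CPM in WT at 10 days. Its libraries separated by genotype with little difference between time points (log2 fold change 0.45, SE 0.225, adjusted p = 0.512). Fibroblasts also transcribe Pdgfrb. The fibroblast list had a log2 fold change above 0 for 14 of 15 genes (9353 of all 18917 genes), with a median of 0.44. DESeq2 called 3 of them higher in cKO, Dpp4 (1.35), Pi16 (0.92) and Dpt (0.87), against 1.25% of all genes, and edgeR called 0. Col3a1 and Gsn, a fibrillar collagen and an actin-severing protein, are its most abundant genes, at 0.30 (SE 0.758) and 0.92 (SE 0.592). Its part in the Pdgfrb difference was not tested.

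Rgs5 (ENSMUSG00000026678.10, chromosome 1, 169655501 to 169695813, plus strand) had the largest fold between its highest and lowest library of the 10 genes, 2.26. It stood at 142 CPM in cKO against 63.02 CPM in WT at 5 weeks, and at 81.5 CPM in cKO against 69.8 CPM in WT at 10 days. The cKO library at 5 weeks stood apart from the other 3, and the log2 ratio was 1.17 at 5 weeks and 0.22 at 10 days. The log2 fold change was 0.70 (SE 0.283, adjusted p = 0.440). Kcnj8 (ENSMUSG00000030247.9, chromosome 6, 142564837 to 142571614, minus strand) stood at 14.8 CPM in cKO against 8.65 CPM in WT at 5 weeks, and at 14.2 CPM in cKO against 6.74 CPM in WT at 10 days. Its libraries fell into a cKO pair and a WT pair, and its estimate was the highest of the 10 members (log2 fold change 0.92, or 1.89-fold, SE 0.282, unadjusted p = 0.0189, adjusted p = 0.346).

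Mcam (ENSMUSG00000032135.15, chromosome 9, 44134469 to 44142727, plus strand) stood at 51.3 CPM in cKO against 45.3 CPM in WT at 5 weeks, and at 47.4 CPM in cKO against 30.4 CPM in WT at 10 days. As with Eng, the low value was that of WT at 10 days. The fit gave Mcam 0.41 on the log2 scale (SE 0.223, adjusted p = 0.544). Mcam shares 17 exonic bases with an antisense gene. Cspg4 (ENSMUSG00000032911.6, chromosome 9, 56865033 to 56899870, plus strand) was the exception, at 22.2 CPM in cKO against 27.3 CPM in WT at 5 weeks, and at 12.7 CPM in cKO against 12.5 CPM in WT at 10 days. Its libraries separated by time and not by genotype (log2 fold change -0.14, SE 0.241, adjusted p = 0.864). Relative to Pdgfrb in CPM, Cspg4 stood at 0.0763 in cKO and 0.140 in WT at 5 weeks, and at 0.0481 in cKO and 0.0597 in WT at 10 days. Glial genes, some of whose cells also make NG2, had a median log2 fold change of -0.13 over 10 genes. They summed to 117 CPM in cKO and 147 CPM in WT at 5 weeks, and to 123 CPM in cKO and 268 CPM in WT at 10 days. Their most abundant genes were Sox10 (log2 fold change -1.07), a transcription factor that epithelium can also express, and Mbp (-0.42), of myelin. In edgeR the 2 of 10 at an unadjusted p under 0.05 were scarcer and higher in cKO, Cdh19 (1.81) and S100b (1.153). There 5.8% of all genes were higher. In DESeq2, Cdh19 was higher (unadjusted p = 0.0209) and Sox10 lower (0.00662), and 0 of 10 passed adjustment. With no filter on low counts, edgeR called Cdh19 higher (1.7% of all genes) and Sox10 lower (2.01%).

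**Figure D2:**
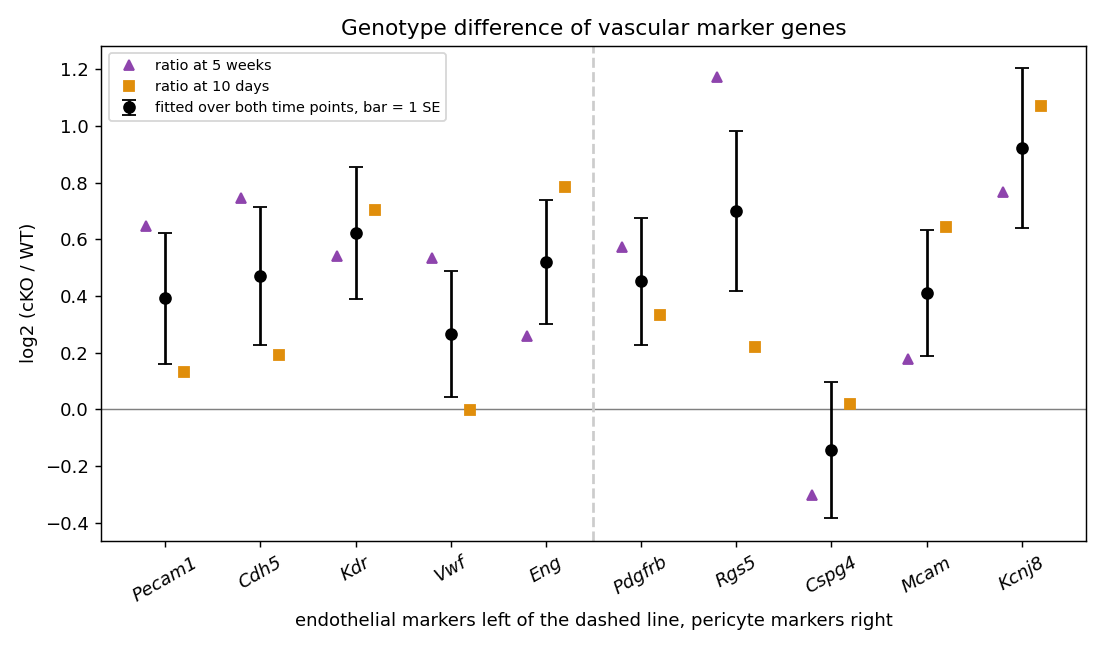
Log2 ratio of cKO over WT (vertical axis) for the 10 vascular genes: circles are the fitted log2 fold changes over both time points with bars of 1 SE, triangles the ratios at 5 weeks and squares those at 10 days (1 library per genotype each). Fitted values run from -0.14 for Cspg4 to 0.92 for Kcnj8, and none passed the threshold.

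Within each time point there was 1 library per genotype, so the ratios have no replicate check. The log2 ratio of cKO over WT exceeded 0.5 at 5 weeks for 7 of 10 members, against 20.9% of all genes, and at 10 days for 4 of 10 (Kdr, Eng, Mcam and Kcnj8), against 18.8% of all genes. It was above 0 for 9 of 10 at 5 weeks (49.1% of all genes) and for 9 of 10 at 10 days (50.1%). It was above 0 at both time points for 8 of 10, against 29.7% of all genes. Pecam1, Cdh5, Vwf, Pdgfrb and Rgs5 had their higher ratio at 5 weeks, and Kdr, Eng, Cspg4, Mcam and Kcnj8 at 10 days. The pericyte sum divided by the endothelial sum in CPM was 1.68 in cKO and 1.53 in WT at 5 weeks, and 1.84 in cKO and 1.87 in WT at 10 days. The genotype estimates rest in part on the cKO library at 5 weeks: without it, and with no time term, the endothelial median was 0.14 and that of Pecam1 0.0047. The sign of Cspg4 turned to 0.14 without cKO at 10 days and to 0.48 without WT at 5 weeks. With no time term, these fits partly mix genotype with time. The log2 ratio within the 10-day pair was 0.13 for Pecam1 and 0.02 for Cspg4.

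Other endothelial genes, from lists chosen with earlier results of these data known, also lay mostly higher in cKO. Of 24 further pan-endothelial genes, 0 passed the threshold in either direction in edgeR. A positive log2 fold change was found for 21, against 9353 of the 18917 genes tested, and the median of the 24 was 0.56. Both cKO libraries lay above both WT libraries for 14 of them, against 22.6% of all genes, and 3 were higher and 0 lower at an unadjusted p under 0.05, against 5.8% of all genes each way. The most abundant in CPM were Cd34, Plvap and Tek. Tek, the angiopoietin receptor TIE2, stood at 78.3 CPM in cKO against 35.8 CPM in WT at 5 weeks, and at 41.9 CPM in cKO against 18.8 CPM in WT at 10 days. It was higher in cKO at each time point (log2 fold change 1.14, SE 0.201, adjusted p = 0.215), and was the only gene of this list that DESeq2 called (adjusted p = 0.00815, against 1.25% of all genes called higher). Cd34, a sialomucin that fibroblasts also carry, stood at 520.6 CPM in cKO against 289 CPM in WT at 5 weeks, and at 331 CPM in cKO against 199.9 CPM in WT at 10 days (log2 fold change 0.79, adjusted p = 0.341). Plvap, of the diaphragms of fenestrae, had a log2 fold change of 0.36.

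Of 10 venous and capillary genes, 9 had a positive log2 fold change (median 0.59), against 9353 of the 18917 genes tested. At an unadjusted p under 0.05, 6 were higher in edgeR, against 5.8% of all genes. In DESeq2 3 were, against 934 of the 18917 genes, and 0 passed adjustment in either. The most abundant were the water channel gene Aqp1 (0.33), the adhesion gene Vcam1 (0.61) and the P-selectin gene Selp (0.26). Of 8 lymphatic genes, 7 were above 0 (median 0.53) and 0 passed in edgeR. Ccl21a, a lymphatic chemokine gene with near-identical copies and therefore an uncertain count, stood at 191 CPM in cKO against 143 CPM in WT at 5 weeks, and at 255 CPM in cKO against 45.3 CPM in WT at 10 days. Its SE was wide (log2 fold change 1.45, SE 0.619, adjusted p = 0.499). DESeq2 called it (adjusted p = 0.0362, against 1.25% of all genes called higher) and limma-voom did not (adjusted p = 0.445). Pdpn was at 0.15 and Reln, highest in WT at 10 days with 60.1 CPM, at -0.79 (SE 1.44). Of 8 arterial genes 4 were above 0 (median 0.09, 0 passed in edgeR or DESeq2). In edgeR, 0 were higher and 1 (Unc5b) was lower at an unadjusted p under 0.05, against 5.8% of all genes each way. The most abundant, Unc5b (-0.80), Efnb2 (-0.57) and Hey1 (-0.08), which epithelium also expresses, were below 0. The scarcer Dll4 (0.92, SE 0.386), Gja4 (0.61, SE 0.317), Bmx (1.03, SE 0.659) and Sema3g (0.26, SE 0.334) were above 0, and Gja5 (-0.29, SE 0.554) was not. Counts were few for Bmx (13 in cKO and 3 in WT at 10 days) and Gja5 (5 in cKO and 9 in WT at 10 days). Of 7 tip cell genes, which mark sprouting vessels, 3 were above 0 (median -0.39, 0 passed in edgeR or DESeq2). In edgeR, 1 was higher and 2 were lower at an unadjusted p under 0.05, against 5.8% of all genes each way. The tip cell list included the basement membrane gene Nid2 (0.54), the growth factor gene Pdgfb (-1.27) and Angpt2 (-0.77), an angiopoietin gene. Unc5b is in this list too, and Pdgfb, Angpt2 and Apln are also in the ligand list. Which cells made these transcripts was not tested for any vascular list, whether its genes lay mostly above or below 0.

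Pericyte genes beyond the members were, like them, mostly above WT. Of 17 tested, 0 passed in edgeR and 14 had a positive log2 fold change (9353 of all 18917 genes), with a median of 0.67. At an unadjusted p under 0.05, 7 of the 17 were higher and 0 lower (5.8% of all genes each way). Both cKO libraries lay above both WT libraries for 12, against 22.6% of all genes. The most abundant were Anpep (0.19), an aminopeptidase gene, Notch3 (0.05), a receptor of mural cells, and Steap4 (0.75). Abcc9 encodes SUR2, the regulatory subunit that pairs with the Kcnj8 product in the potassium channel. It was picked after its values were seen and stood at 100.1 CPM in cKO against 52.6 CPM in WT at 5 weeks, and at 96.2 CPM in cKO against 35.5 CPM in WT at 10 days. Both channel genes thus divided by genotype at each time point (Abcc9 log2 fold change 1.18, SE 0.220, adjusted p = 0.217). Abcc9 (142587862 to 142702315) lies close to Kcnj8 (142564837 to 142571614) on the minus strand of chromosome 6. DESeq2 called Abcc9 (adjusted p = 0.00651), Ebf1 (0.0184) and Vtn (0.0380), all higher in cKO, where it called 1.25% of all genes higher.

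The contractile genes of vascular smooth muscle, which mammary myoepithelial cells share, did not follow the pericyte genes in their values. Of 12, 5 were above 0, the median was -0.09 and 0 passed in edgeR or DESeq2. In edgeR, 1 was higher and 1 lower at an unadjusted p under 0.05, against 5.8% of all genes each way. The sum of the 12 was 1730 CPM in cKO and 1583 CPM in WT at 5 weeks, and 1474 CPM in cKO and 2613 CPM in WT at 10 days. Acta2 (-0.43), Myh11 (-0.21) and Tagln (-0.56) made up most of it and are not specific to vessels in this gland, and Acta2 and Cnn1 are in the basal list as well.

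The ligands of the member receptors were measured in the same libraries. Vegfa, the ligand of VEGFR2, was at 177 CPM in cKO and 208 CPM in WT at 5 weeks, and at 207 CPM in cKO and 196 CPM in WT at 10 days, so its libraries overlapped (log2 fold change -0.08, SE 0.221). Pdgfb, the ligand of PDGFRβ, stood at 18.2 CPM in cKO against 26.9 CPM in WT at 5 weeks, and at 22.3 CPM in cKO against 87.7 CPM in WT at 10 days. It was thus lower in cKO in each pair, opposite in sign to Pdgfrb (log2 fold change -1.27, SE 0.402, adjusted p = 0.386). Pdgfc had -1.05 and the VEGF co-receptor gene Nrp1 0.80. Of the endoglin ligands, Bmp10 had 0 counts in all 4 libraries and Gdf2, which encodes BMP9, had at most 9. Vegfd, a lymphatic growth factor gene, had 1.20 (SE 0.221, adjusted p = 0.217 in edgeR). It was the only gene of this list that DESeq2 called (adjusted p = 0.00878, against 1.25% of all genes called higher). Over the 14 genes tested the median was -0.07, with 6 above 0 and 0 passing in edgeR. Of these 14, 3 were higher and 2 lower at an unadjusted p under 0.05 in edgeR, against 5.8% of all genes each way. With no filter on low counts, edgeR called more genes of the vascular and ligand lists. Higher in cKO were Tek, Car4, Ccl21a, Abcc9, Des, Vtn, Ebf1, Mustn1, Rgs4, Vegfd and Nrp1, where 1.7% of all genes were called higher. Lower in cKO were Pdgfb, Pdgfc and Sncg, where 2.01% of all genes were called lower.

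Blood cell markers bear on Pecam1 and Eng, which leukocytes also transcribe. Of 18 leukocyte genes, 16 had a positive log2 fold change (median 1.03), against 9353 of the 18917 genes tested. In edgeR 0 passed, and 8 were higher at an unadjusted p under 0.05 (5.8% of all genes). DESeq2 called 2, Ptprc and Lyz2, where it called 1.25% of all genes higher. Their sum was 314 CPM in cKO and 195 CPM in WT at 5 weeks, and 243 CPM in cKO and 234 CPM in WT at 10 days, and no gene of the list was at 0. Ptprc, which encodes the sorted antigen CD45, stood at 30.7 CPM in cKO against 7.26 CPM in WT at 5 weeks, and at 18.9 CPM in cKO against 9.32 CPM in WT at 10 days (log2 fold change 1.55, adjusted p = 0.255). Cd14 and Lyz2, the most abundant, had -0.22 and 1.32. So genes of a second sorted-out cell type lay higher in cKO as well, and their part in the Pecam1 and Eng values was not tested. Erythroid genes, mostly the globin genes Hba-a2 (0.05) and Hbb-bs (0.48), whose near-identical copies make their counts uncertain, summed to 85.4 CPM in cKO and 37.0 CPM in WT at 5 weeks, and to 15.6 CPM in cKO and 33.3 CPM in WT at 10 days (5 tested, median 0.05). Adipocyte genes summed to 449 CPM in cKO and 224 CPM in WT at 5 weeks, and to 913 CPM in cKO and 189.7 CPM in WT at 10 days (10 tested, median 1.72), with Fabp4 at 1.27 and Cfd at 4.25. Fabp4 and Cd36 of that list are also capillary genes, and DESeq2 called both higher in cKO (adjusted p = 0.00119 and 0.000382), while edgeR called 0 of the list.

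**Figure D3:**
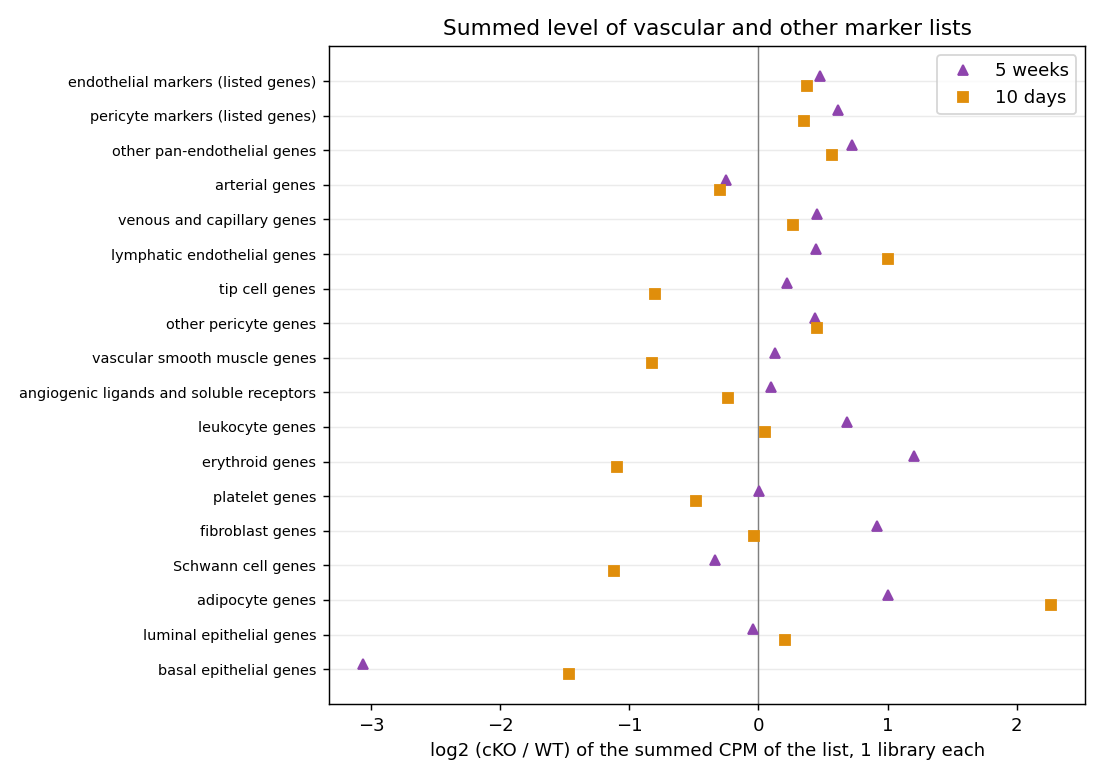
Log2 ratio of cKO over WT (horizontal axis) of the summed CPM of each marker list, at 5 weeks (triangles) and 10 days (squares), 1 library per genotype each, with no test. The endothelial and pericyte rows at the top lie right of 0 at both time points, as do those of venous and capillary, lymphatic, leukocyte and adipocyte genes, while those of arterial, Schwann cell and basal epithelial genes lie left of 0 at both.

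The second comparison set 5 weeks against 10 days with genotype held constant. No member passed (0 of 10 at an adjusted p of 0.05 in edgeR, against 0.0634% of all genes), and 1 was higher at 5 weeks at an unadjusted p under 0.05, against 3.09% of all genes, with 0 lower, against 2.27%. DESeq2 and limma-voom also called 0 at an adjusted p of 0.05, against 1.01% and 0.196% of all genes. Each had 1 higher at 5 weeks at an unadjusted p under 0.05, where 535 (DESeq2) and 653 (limma-voom) of the 18917 genes tested were. All 10 fitted log2 fold changes of 5 weeks over 10 days were above 0, against 10387 of the 18917 genes tested. Their median was 0.35, against 0.03 for all genes tested. In the cKO pair all 10 lay higher at 5 weeks and in the WT pair 7 did. Both held for 7 of 10 members, against 27.3% of all genes. The median log2 ratio of the members was 0.41 in the cKO pair and 0.28 in the WT pair. Over all genes tested it was 0.0037 in the cKO pair and 0.050 in the WT pair.

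Cspg4 had the largest time estimate of the members. It stood at 22.2 CPM in cKO and 27.3 CPM in WT at 5 weeks, against 12.7 CPM in cKO and 12.5 CPM in WT at 10 days, and both 5-week libraries lay above both 10-day libraries, as they did for Pecam1 and Eng (3 of 10 members, against 13.3% of all genes, with 0 the other way round, against 13.5%). The log2 fold change of Cspg4 was 0.97 (SE 0.243, unadjusted p = 0.00853, adjusted p = 0.593). With no filter on low counts it passed (adjusted p = 0.0467), and the others gave it an adjusted p of at least 0.276. Eng (0.54, SE 0.219), Kdr (0.50, SE 0.231) and Pecam1 (0.46, SE 0.231) followed, while Pdgfrb was at 0.02 (SE 0.224). Rgs5 lay higher at 5 weeks in cKO (log2 ratio 0.80) and lower in WT (-0.15).

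**Figure D4:**
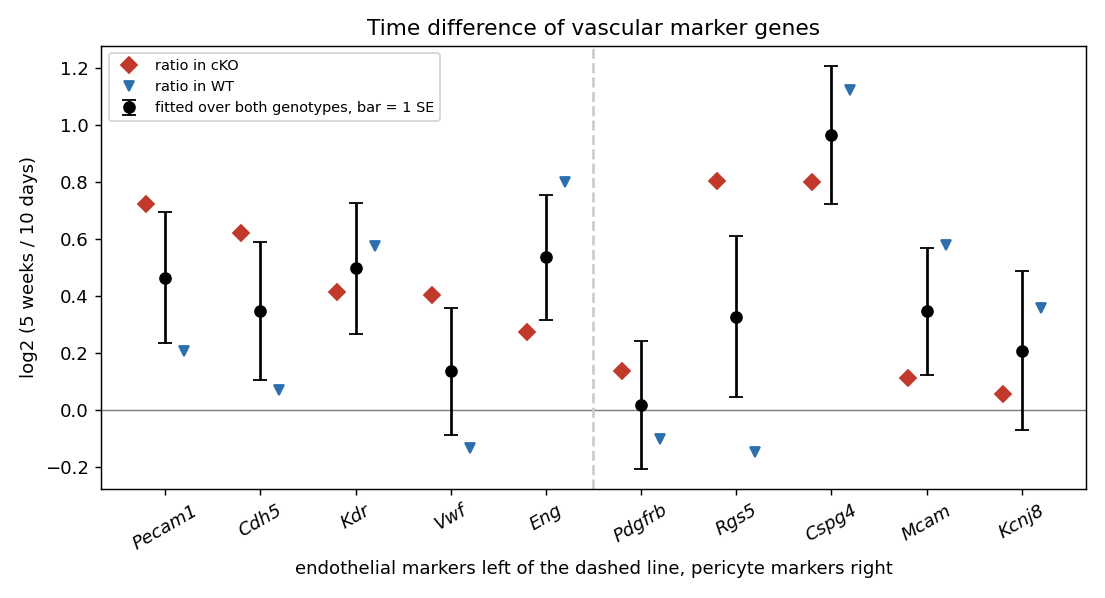
Log2 ratio of 5 weeks over 10 days (vertical axis) for the 10 vascular genes: circles are the fitted values over both genotypes with bars of 1 SE, diamonds the ratios in cKO and inverted triangles those in WT (1 library per time point each). Cspg4 has the highest fitted value, 0.97, and Pdgfrb the lowest, 0.02.

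The genes whose profile over the 4 libraries lay nearest to the mean profile of each set were not vascular markers. By Euclidean distance of centred log2 CPM, among genes of at least 5 CPM, Spopl (distance 0.034), Rab8b (0.0646) and Ccng2 (0.0677) lay nearest to the endothelial mean. Its own members lay between 0.190 (Pecam1) and 0.388 (Eng) from it. Adam10 (0.0328), Serpinb6a (0.0400) and Eci2 (0.0560) lay nearest to the pericyte mean, whose members lay between 0.251 (Mcam) and 0.864 (Cspg4). With 4 libraries the profile is set by few values, and such nearness is a description only.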

How the data were processed

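RNA was sequenced from 4 libraries of sorted mouse mammary cells, grouped by the genotype label (2 cKO, 2 WT), with the time point taken from its own label. The deposited table holds the authors' estimated counts per gene, 1 column for each library. No library of another series was among them (0 columns). The authors' tool Salmon and build GRCm38 come, per the submitters' processing notes, without further detail. The annotation, tool version and strand setting are not given in the sources used here. The deposited values are whole numbers, so rounding changed none. All 54393 identifiers matched GENCODE M21, which gave symbols, positions and exon lengths. Where identifiers shared a symbol (105 repeats), the one with most counts was used.

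Genes were filtered with filterByExpr (minimum count 10), leaving 18917 with 99.9% of counts, normalised by TMM, and modelled in edgeR 4.0.16 (R 4.3.3) with a robust quasi-likelihood model holding both time point and genotype (1 residual degree of freedom, biological coefficient of variation 0.286). Adjustment was by Benjamini-Hochberg across the 18917 genes (threshold 0.05). SE was taken as |log2 fold change| over √F. CPM uses TMM-scaled totals, and log2 ratios within a time point use a prior count of 2. Genotype by time could not be tested, since it leaves no residual. The fit was tested on simulated counts. Alternatives were other scaling factors, no filter, DESeq2 1.42.0, limma-voom 3.58.1, no time term, and leaving out each library. The time term stands in for a replicate block, as there is 1 library per genotype and time point.

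The members and the 16 other lists were chosen with earlier results of these data known, so lists are described by counts and medians with no test. Named genes are the 10 members, the 3 most abundant genes of each vascular list and up to 2 of each other list, and the 3 nearest profiles. Abcc9, Ptprc, Gp9, Gdf2, Bmp10, genes that only DESeq2 or the unfiltered fit called, and the scarcer arterial and glial genes were added after their values were seen. Promoter sequences are from RefSeq (GRCm38.p6).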

Additional observations from a re-analysis of the deposited data

Results flagged for a closer look

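For Vwf and Cspg4 the log2 ratio of cKO over WT had opposite signs at the 2 time points, each from 1 library per genotype. The ratio of Vwf at 5 weeks exceeded that at 10 days by 0.54 on the log2 scale, with the 10-day ratio (-0.0034) next to 0. The ratio of Cspg4 at 5 weeks minus that at 10 days was -0.32, with the 10-day ratio (0.02) also next to 0. Neither difference was tested, as 4 libraries leave nothing over for an interaction term.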

How the results depend on the processing

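Over all genes, the reported model called 11 genes for genotype and 12 for time. For genotype, DESeq2's size factors gave 5, upper-quartile factors 3, no filter on low counts 1235, DESeq2 512 and limma-voom 20, and leaving out a library gave 0 to 61 (61 without WT at 10 days, 2 without WT at 5 weeks, 0 without either cKO library). For time, no filter gave 638, DESeq2 192 and limma-voom 37, and leaving out a library gave 0 to 19 (0 without either 5-week library, 13 without cKO at 10 days, 19 without WT at 10 days). With 1 term only (no time term for genotype, no genotype term for time) the counts were 0 for genotype and 1 for time. For genotype, 2182 genes were then at an unadjusted p under 0.05. The cause of these shifts was not tested. Under every alternative run, 0 of 10 members were called for genotype. Their fitted values kept their sign in 98 of 100 member alternatives. The exceptions were of Cspg4, at 0.14 when cKO at 10 days was left out and 0.48 when WT at 5 weeks was (range over left-out libraries -0.67 to 0.48). Over left-out libraries the endothelial median lay between 0.14 (cKO at 5 weeks out) and 0.74 (cKO at 10 days out), the pericyte median between 0.31 (cKO at 5 weeks out) and 0.68 (WT at 5 weeks out). Both stayed within 0.44 to 0.50 under alternatives that kept all 4 libraries. For time, 91 of 100 kept sign and call. Signs turned with cKO at 5 weeks left out for Cdh5 (-0.042, 0.72 at most over left-out libraries), Vwf (-0.15, 0.41 at most), Pdgfrb (-0.29, 0.30 at most), Rgs5 (-0.28, 0.91 at most) and Kcnj8 (-0.28, 0.76 at most), with WT at 10 days left out for Pdgfrb (-0.11) and Kcnj8 (-0.27), and with upper-quartile factors for Pdgfrb (-0.0029). Cspg4 passed for time with no filter (0.98, adjusted p = 0.0467). The fits without a library have 1 term, so genotype and time are partly mixed in them, in their sign changes too. They also assume that a lone library varies like the others. With a prior count of 0.5 the 20 ratios within a time point kept their sign. The lowest count of a member in a library was 232.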
